A study of Mus musculus with 18 samples.

Results

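Smooth muscle of the ileum was followed through 10 genes of its contractile apparatus, Actg2, Acta2, Cnn1, Tagln, Lmod1, Myh11, Des, Smtn, Synpo2 and Mylk, in 18 mice after an allogeneic bone marrow transplant. Each gene was read from a probe set annotated with that symbol alone, and where a gene had several such probe sets the one with the highest mean over the 18 arrays was used. All 10 genes were measured, out of 22180 genes in all. Each mouse gave 1 whole-transcript array, which measures RNA as a log2 signal per probe set. The recipients were B10.BR mice aged 8 to 12 weeks, exposed to 11 Gy of total body irradiation and given 5000000 bone marrow cells of C57Bl/6 donors, depleted of T cells. The T cell mice also received 2000000 purified donor T cells, and per the labels such mice develop graft-versus-host disease, in which cells of the graft attack the host. The marrow-only mice received no added T cells. Both arms were gavaged daily, starting 1 day before the transplant, with indole-3-carboxaldehyde (ICA) at 150 mg/kg or with its vehicle of 20% DMSO, 40% PEG400 and 2% citric acid, and ileum was taken on day 21. The T cell arm held 5 mice on ICA and 4 on vehicle, and the marrow-only arm likewise 5 on ICA and 4 on vehicle. All 4 groups were irradiated and transplanted, so none shows the untreated ileum, and the labels name no layer of the gut wall.

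Smooth muscle contracts when calcium, through calmodulin, activates myosin light chain kinase, which phosphorylates the light chains of smooth muscle myosin and lets it pull on thin filaments of alpha and gamma smooth muscle actin. Calponin, transgelin, smoothelin and leiomodin bind or build these filaments, and desmin and synaptopodin 2 belong to the cytoskeleton that anchors them. In the intestine these cells form the circular and longitudinal muscle coats that propel the contents and the thin muscularis mucosae. Much of the programme is driven by serum response factor, which binds the CArG box in DNA and is assisted by myocardin and its relatives.

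The arrays were alike in scale, with medians between 6.47 and 6.51 log2 units and correlations across genes of 0.978 to 0.993 between any pair. The tissue label was checked against markers: the epithelial genes Epcam and Vil1 had a higher mean signal than 99.3% and 99.6% of genes, and the smooth muscle genes Actg2 and Myh11 than 97.9% and 98.3%. The lowest median correlation of an array with its own group was 0.985 for T cell ICA mouse 1 (0.989 to 0.990 in the rest), 0.9895 for T cell vehicle mouse 2 (0.9900 to 0.9905), 0.983 for marrow-only ICA mouse 1 (0.988 to 0.990) and 0.989 for marrow-only vehicle mouse 3 (0.992 in each of the rest). T cell ICA mouse 1, marrow-only ICA mouse 1 and marrow-only vehicle mouse 3, picked with earlier results of these data known, were left out together in an alternative fit. Without these 3 arrays the fit called 8 members in T cell against marrow-only mice on ICA, as it did with them, and 0 on vehicle, again as with them. Over all 22180 genes the calls rose without them, from 693 to 1515 on ICA and from 327 to 664 on vehicle. The number of mice limits the precision of every value below.

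The start regions of 3 members and 1 related gene are shown for the CArG box. Cnn1 was the member with the largest difference between T cell and marrow-only mice on ICA, Mylk was the member with the smallest, Acta2 was the 1 member whose window held close matches to the box, and Vcl, which encodes vinculin, was a gene of the anchoring list with an exact match. Each sequence is the 250 bases before the annotated start, read 5′ to 3′ on the gene's strand, from RefSeq on GRCm38.p6. Capitals mark a CArG box, which is a pair of C, 6 bases of A or T and a pair of G, or a box in which 1 of the 6 inner bases is G or C.
Cnn1, chr9:22099003-22099252 (plus strand): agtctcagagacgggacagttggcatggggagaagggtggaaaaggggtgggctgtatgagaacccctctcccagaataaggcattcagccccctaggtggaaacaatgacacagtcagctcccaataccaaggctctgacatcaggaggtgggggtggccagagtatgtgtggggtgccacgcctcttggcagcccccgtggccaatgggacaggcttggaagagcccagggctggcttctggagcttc
Acta2, chr19:34255374-34255623 (minus strand): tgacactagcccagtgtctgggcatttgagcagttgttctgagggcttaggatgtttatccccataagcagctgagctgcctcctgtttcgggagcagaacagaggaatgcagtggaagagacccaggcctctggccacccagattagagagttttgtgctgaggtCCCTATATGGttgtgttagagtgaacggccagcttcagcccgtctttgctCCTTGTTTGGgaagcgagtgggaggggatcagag
Mylk, chr16:34784700-34784949 (plus strand): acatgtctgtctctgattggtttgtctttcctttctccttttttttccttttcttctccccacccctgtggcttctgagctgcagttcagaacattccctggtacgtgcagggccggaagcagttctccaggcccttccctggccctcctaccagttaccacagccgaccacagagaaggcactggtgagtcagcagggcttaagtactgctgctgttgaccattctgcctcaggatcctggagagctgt
Vcl, chr14:20929148-20929397 (plus strand): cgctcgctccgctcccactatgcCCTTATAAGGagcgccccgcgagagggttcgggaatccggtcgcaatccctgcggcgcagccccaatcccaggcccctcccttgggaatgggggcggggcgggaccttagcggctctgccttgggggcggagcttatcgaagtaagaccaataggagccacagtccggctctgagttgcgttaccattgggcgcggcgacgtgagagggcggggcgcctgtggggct
The matches in Acta2 began 84 and 34 bases before the start, and both had 1 inner base of G or C. The exact box in Vcl began 227 bases before the start. Vcl was shown for this match, and the boxes of the other genes of its list were not counted. The match therefore describes Vcl alone. Windows of 300 bases, 250 before and 50 after the start, were held for 7 of the 10 members, and 0 of these 7 had an exact box while 1 of 7 had a box with 1 inner base changed. Each of the 7 had 1 window, so any other start of a gene was not read. The box reads as the same pattern on both strands. Of all 32851 windows, 1.63% held an exact box and 9.98% held an exact box or one with a changed inner base. No window was held for Actg2, Tagln and Myh11. A match describes the letters of these windows and shows no binding.

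The contractile genes were higher in the ileum of mice given donor T cells. Averaged over the ICA and vehicle arms, 8 of the 10 rose at an adjusted p under 0.05 over all genes, 0 fell, and the median of the 10 log2 differences was 0.35, against 0.00 over all 22180 genes. Of all genes, 3.58% were called higher and 3.62% lower in the same average. The 8 genes were Actg2, Acta2, Cnn1, Tagln, Lmod1, Myh11, Des and Synpo2, and the differences were modest, between 1.16-fold for Acta2 and 1.43-fold for Actg2. Smtn and Mylk were not called. All tests were limma's moderated test of 1 model over the 18 arrays, with Benjamini-Hochberg adjustment over all genes. In RNA of whole tissue, a larger share of smooth muscle in the sample and more of these RNAs per cell cannot be told apart.

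The mean log2 signal of the 10 genes was 10.17, 10.47, 10.11, 10.45 and 10.48 in T cell mice on ICA, against 10.04, 10.02, 9.80, 10.01 and 9.91 in marrow-only mice on ICA. It was 10.30, 10.34, 10.10 and 10.08 in T cell mice on vehicle, against 9.83, 9.99, 10.03 and 10.03 in marrow-only mice on vehicle. Every T cell mouse therefore lay above every marrow-only mouse of the same treatment, although the lowest T cell mice were close to the highest marrow-only mice. Its group mean was 10.34 ± 0.18 in T cell mice on ICA, against 9.96 ± 0.10 in marrow-only mice on ICA (SD, n = 5 each). On vehicle it was 10.21 ± 0.13 in T cell mice, against 9.97 ± 0.10 in marrow-only mice (SD, n = 4 each). The marrow-only groups differed by less than either SD, and the T cell groups by less than the larger SD.

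**Figure D1:**
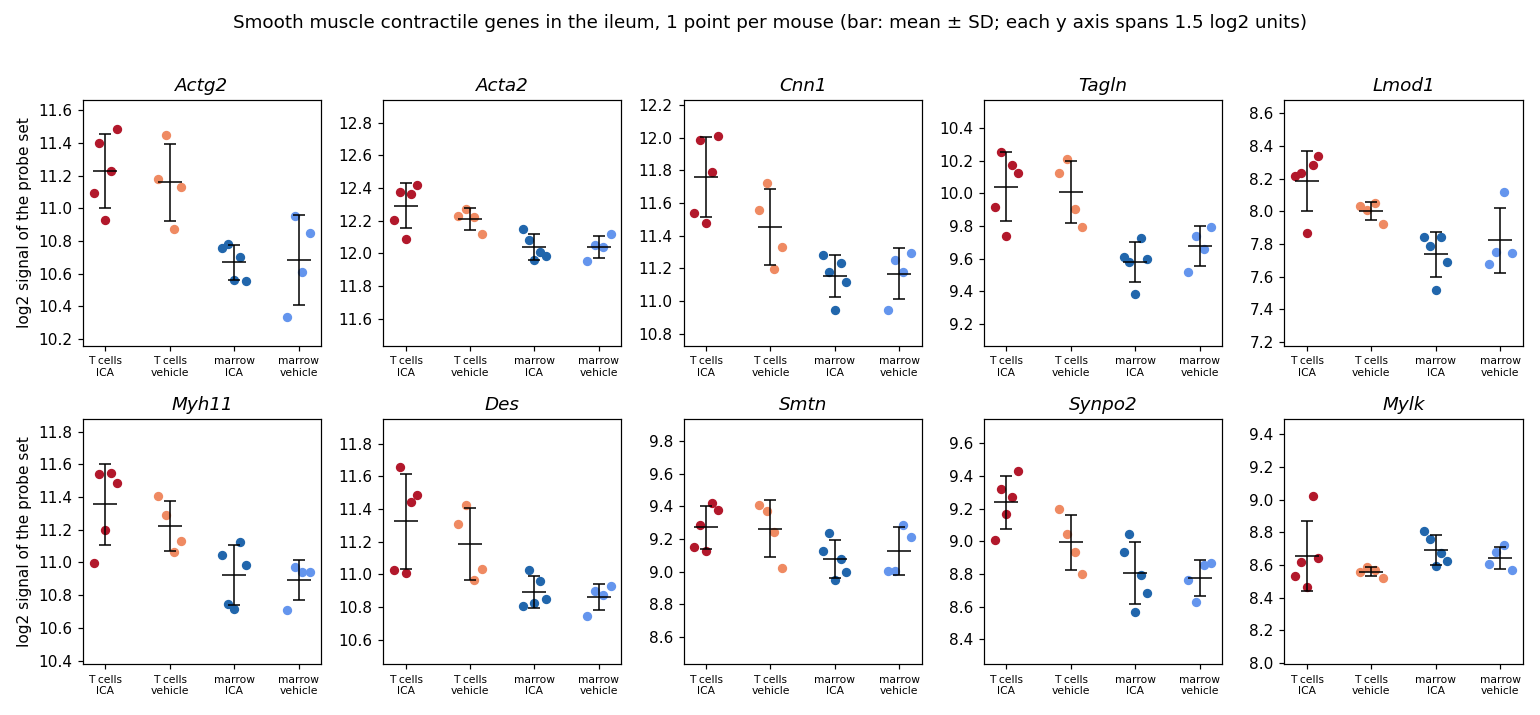
Log2 signal (y axis, each panel spanning 1.5 log2 units) of the 10 contractile genes by group (x axis), with 1 point per mouse and black bars for the mean ± SD. In 8 panels both T cell groups have higher means than both marrow-only groups and passed the test of the T cell effect averaged over treatments; Smtn has the same order of means without passing, and Mylk has its lowest mean, 8.56, in T cell mice on vehicle.

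The actins form the thin filament. Actg2 (probe set 17468183), gamma smooth muscle actin and the main actin of gut muscle, had log2 signals of 11.09, 11.40, 10.93, 11.23 and 11.49 in T cell mice on ICA, against 10.76, 10.78, 10.56, 10.70 and 10.55 in marrow-only mice on ICA. With vehicle it had 11.18, 11.45, 10.88 and 11.13 in T cell mice, against 10.33, 10.95, 10.61 and 10.85 in marrow-only mice. The ICA groups did not overlap, whereas with vehicle T cell mouse 3 lay below marrow-only mouse 2. Actg2 rose 1.47-fold with T cells under ICA (log2 difference 0.56 ± 0.12, SE, limma adjusted p = 0.0124). Under vehicle the difference was 0.47 ± 0.14 (SE, limma adjusted p = 0.0859), the smallest adjusted p of the 10 genes in that arm.

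Acta2 (probe set 17364098), alpha smooth muscle actin, which also marks vascular muscle, pericytes and myofibroblasts, had the narrowest spread of the 10, 0.466 log2 units over the 18 arrays. It had 12.21, 12.38, 12.09, 12.36 and 12.42 in T cell mice on ICA, against 12.15, 12.08, 11.96, 12.01 and 11.98 in marrow-only mice on ICA. The vehicle mice had 12.23, 12.27, 12.22 and 12.12 in T cell mice, against 11.95, 12.05, 12.04 and 12.12 in marrow-only mice. Here the vehicle groups were the ones that did not overlap, narrowly (12.1188 in the lowest T cell mouse against 12.1174 in the highest marrow-only mouse). Acta2 rose under ICA by a log2 difference of 0.25 ± 0.06 (SE, limma adjusted p = 0.0341), and under vehicle the difference was 0.17 ± 0.07 (SE, limma adjusted p = 0.292).

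Proteins that bind the filament came next. Cnn1 (probe set 17515402), calponin, which binds actin and restrains myosin's ATPase, had 11.54, 11.98, 11.48, 11.79 and 12.01 in T cell mice on ICA, against 11.28, 11.18, 10.95, 11.23 and 11.12 in marrow-only mice on ICA. On vehicle the signals were 11.56, 11.72, 11.20 and 11.33 in T cell mice, against 10.94, 11.25, 11.18 and 11.30 in marrow-only mice. All 5 T cell mice on ICA lay above all 5 marrow-only mice on ICA, and the vehicle groups overlapped. The log2 difference under ICA, 0.61 ± 0.11 (SE, 1.53-fold, limma adjusted p = 0.0036), was the largest among the 10 genes in either arm. Under vehicle Cnn1 differed by 0.28 ± 0.13 (SE, limma adjusted p = 0.327).

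Tagln (probe set 17526576), transgelin or SM22, an actin-bundling protein of the calponin family, did not overlap between T cell and marrow-only mice in either arm. It had 9.92, 10.25, 9.74, 10.17 and 10.12 in T cell mice on ICA, against 9.61, 9.58, 9.38, 9.73 and 9.60 in marrow-only mice on ICA. Among vehicle mice it had 10.12, 10.21, 9.90 and 9.79 in T cell mice, against 9.52, 9.74, 9.66 and 9.79 in marrow-only mice. The gap was small in both arms, 9.74005 against 9.7253 under ICA and 9.79464 against 9.79191 under vehicle. Of all genes, 1.16% had every T cell mouse above every marrow-only mouse under ICA and 6.33% under vehicle. The share of all genes with such a gap in both arms was not counted. Tagln rose by 0.46 ± 0.10 under ICA (SE, limma adjusted p = 0.0114) and differed by 0.33 ± 0.11 under vehicle (SE, limma adjusted p = 0.153).

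Lmod1 (probe set 17217596), leiomodin 1, which nucleates actin filaments in smooth muscle, had 8.21, 8.23, 7.87, 8.28 and 8.34 in T cell mice on ICA, against 7.84, 7.79, 7.52, 7.84 and 7.69 in marrow-only mice on ICA. With vehicle the values were 8.03, 8.01, 8.05 and 7.92 in T cell mice, against 7.68, 7.75, 8.12 and 7.74 in marrow-only mice. The ICA groups did not overlap. With vehicle, marrow-only mouse 3 was above all 4 T cell mice and the other 3 marrow-only mice were below them. Lmod1 rose by 0.45 ± 0.10 under ICA (SE, limma adjusted p = 0.0111) and differed by 0.18 ± 0.11 under vehicle (SE, limma adjusted p = 0.522).

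Smtn (probe set 17259831), smoothelin, an actin-binding protein of contractile cells, had 9.15, 9.28, 9.12, 9.42 and 9.38 in T cell mice on ICA, against 9.13, 9.24, 8.95, 9.08 and 9.00 in marrow-only mice on ICA. On vehicle it had 9.41, 9.37, 9.25 and 9.02 in T cell mice, against 9.01, 9.00, 9.29 and 9.21 in marrow-only mice. Groups overlapped in both arms, and neither difference passed the test, at 0.19 ± 0.09 under ICA (SE, limma adjusted p = 0.271) and 0.14 ± 0.10 under vehicle (SE, limma adjusted p = 0.625). Its other probe set had 6.88 to 7.30 in T cell mice on ICA and 6.60 to 7.20 in marrow-only mice on ICA, and those groups overlapped as well.

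The motor is Myh11 (probe set 17328368), the heavy chain of smooth muscle myosin. It had 11.00, 11.54, 11.20, 11.55 and 11.48 in T cell mice on ICA, against 11.05, 10.74, 10.72, 11.12 and 10.99 in marrow-only mice on ICA. The vehicle groups had 11.40, 11.29, 11.06 and 11.13 in T cell mice, against 10.71, 10.97, 10.94 and 10.94 in marrow-only mice. The vehicle groups did not overlap, and the ICA groups did, through T cell mouse 1. Myh11 rose by 0.43 ± 0.11 under ICA (SE, limma adjusted p = 0.031) and differed by 0.33 ± 0.12 under vehicle (SE, limma adjusted p = 0.198).

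Mylk (probe set 17325159), the kinase that switches the motor on, was the member whose differences lay below 0 in both arms. It had 8.53, 8.62, 8.47, 9.02 and 8.64 in T cell mice on ICA, against 8.81, 8.76, 8.59, 8.67 and 8.62 in marrow-only mice on ICA. In the vehicle arm it had 8.56, 8.59, 8.57 and 8.52 in T cell mice, against 8.60, 8.68, 8.72 and 8.57 in marrow-only mice. The groups overlapped in both arms. The log2 difference was -0.04 ± 0.08 under ICA (SE, 95% interval -0.21 to 0.14, limma adjusted p = 0.888) and -0.08 ± 0.09 under vehicle (SE, 95% interval -0.28 to 0.11, limma adjusted p = 0.784). Over the 18 omissions of 1 mouse the difference under ICA lay between -0.13 and 0.01, so its sign was not fixed. In the other settings it lay between -0.04 and 0.02. Averaged over the arms, the interval of Mylk was -0.19 to 0.07. It overlapped that of Smtn, the other member not called, at 0.03 to 0.30. Whether Mylk differed from the other genes in its response was not tested.

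Des (probe set 17214476), desmin, the intermediate filament protein of muscle, had 11.03, 11.66, 11.01, 11.45 and 11.49 in T cell mice on ICA, against 10.81, 11.03, 10.82, 10.96 and 10.85 in marrow-only mice on ICA. With vehicle the signals were 11.31, 11.43, 10.96 and 11.04 in T cell mice, against 10.75, 10.90, 10.87 and 10.93 in marrow-only mice. The vehicle groups did not overlap. Under ICA they did, since T cell mouse 3 lay just below marrow-only mouse 2. Des rose by 0.43 ± 0.11 under ICA (SE, limma adjusted p = 0.0382) and differed by 0.32 ± 0.13 under vehicle (SE, limma adjusted p = 0.24). A further probe set, annotated to Des and Gm15179 together, had a low signal and was not used. It had 5.33 to 5.74 in T cell mice on ICA, against 5.25 to 5.76 in marrow-only mice on ICA. On vehicle it had 5.61 to 5.93 in T cell mice, against 5.37 to 5.80 in marrow-only mice.

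Synpo2 (probe set 17410031), synaptopodin 2 or myopodin, an actin-bundling protein found at muscle Z-discs and smooth muscle dense bodies, had 9.00, 9.32, 9.17, 9.27 and 9.43 in T cell mice on ICA, against 8.93, 9.05, 8.57, 8.79 and 8.68 in marrow-only mice on ICA. Among mice on vehicle it had 9.19, 9.05, 8.93 and 8.80 in T cell mice, against 8.76, 8.63, 8.86 and 8.86 in marrow-only mice. Groups overlapped in both arms. Synpo2 rose by 0.43 ± 0.10 under ICA (SE, limma adjusted p = 0.0166) and differed by 0.22 ± 0.11 under vehicle (SE, limma adjusted p = 0.421).

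Counted by arm, 8 of 10 genes rose in T cell against marrow-only mice on ICA, where 1.05% of all genes were called higher and 2.07% lower, with a median log2 difference of 0.43 against -0.01 over all genes. In mice on vehicle 0 of 10 were called by limma, where 0.794% of all genes were called higher and 0.681% lower. There 9 of 10 differences were above 0, with a median of 0.25 against 0.01 over all genes, and 6 of 10 had an unadjusted p under 0.05, as did 2885 of all 22180 genes. Every T cell mouse lay above every marrow-only mouse for 4 of 10 genes under ICA (Actg2, Cnn1, Tagln and Lmod1), where 1.16% of all genes did so. Under vehicle this held for 4 of 10 (Acta2, Tagln, Myh11 and Des), where 6.33% of all genes did so. With both treatments pooled, all 9 T cell mice lay above all 9 marrow-only mice for 0 of 10 genes, and for 0.144% of all genes.

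The calls under ICA depended on single mice for 4 of the 8 called genes. Actg2, Cnn1, Tagln and Lmod1 were called in all 18 fits that left out 1 mouse. Acta2, Myh11 and Des were called in 12 of the 18 and Synpo2 in 15 of the 18. The count of called genes was 4 without T cell ICA mouse 5, marrow-only ICA mouse 3 or marrow-only ICA mouse 5, 5 without T cell ICA mouse 2 or 4, and 4 when the model held the ICA groups alone. The T cell effect averaged over treatments gave 8 called genes in every one of these omissions.

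**Figure D2:**
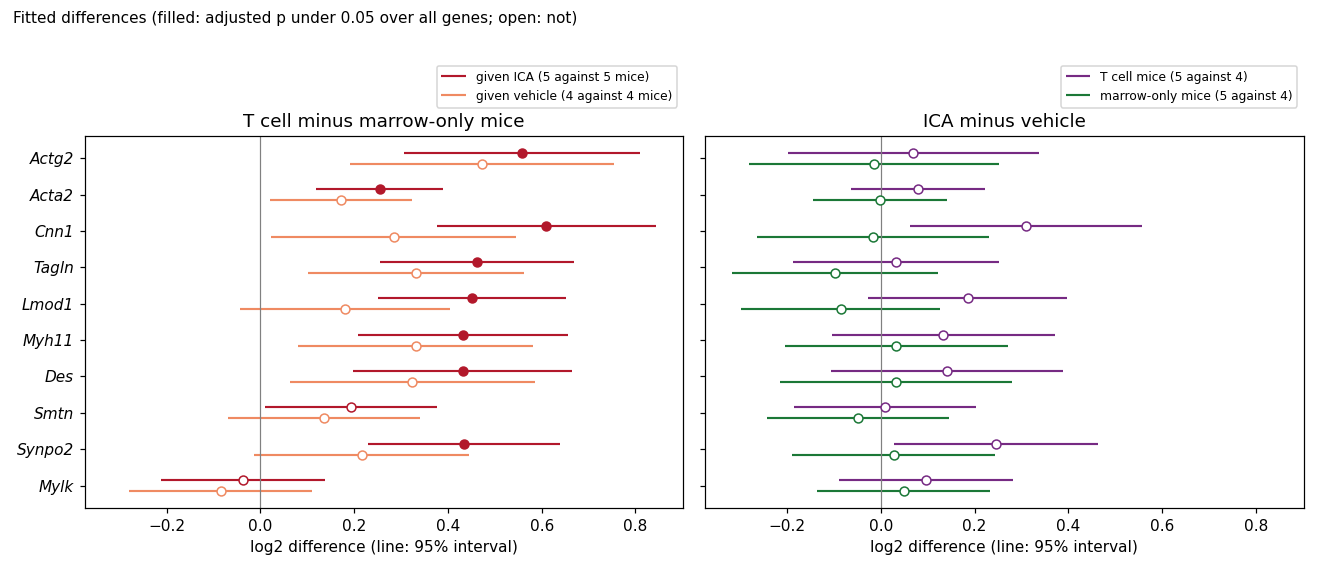
Fitted log2 differences (x axis, with 95% intervals as lines) for the 10 genes (y axis), T cell minus marrow-only mice on the left and ICA minus vehicle on the right; filled points have an adjusted p under 0.05 over all genes. On the left 8 points are filled, all of mice on ICA and between 0.25 and 0.61, and on the right 0 are filled.

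The ICA question was whether treatment altered these genes within either arm. In T cell mice on ICA against T cell mice on vehicle, all 10 differences were above 0 with a median of 0.11, against -0.01 over all genes, and 0 of 10 were called by limma, where 0.0135% of all genes were called. Cnn1 had the largest difference, 0.31 ± 0.12 (SE, 95% interval 0.06 to 0.56, limma adjusted p = 0.592). Synpo2 followed with 0.25 ± 0.10 (SE, 95% interval 0.03 to 0.46, limma adjusted p = 0.66). These were the 2 of 10 genes with an unadjusted p under 0.05, which 1529 of all 22180 genes had. Over the 18 omissions of 1 mouse the median lay between 0.07 (without T cell ICA mouse 2) and 0.16 (without T cell vehicle mouse 2), and in some omissions the differences of Actg2, Tagln and Smtn turned below 0, to as low as -0.02, -0.04 and -0.07. For the other 8 genes the intervals spanned 0, and the mice on ICA and on vehicle overlapped for all 10, where 1.11% of all genes had every mouse on ICA above every mouse on vehicle.

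In marrow-only mice on ICA against marrow-only mice on vehicle, 0 of 10 were called by limma, where 0.00451% of all genes were called. At an unadjusted p under 0.05 there were 0 of 10, and 1669 of all 22180 genes. The groups overlapped for all 10, where 1.35% of all genes had every mouse on ICA above every mouse on vehicle. The median difference was -0.01, against 0.01 over all genes, with a range of -0.10 for Tagln to 0.05 for Mylk. The 95% intervals still allowed differences of up to 0.28 for Des and down to -0.32 for Tagln.

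Because the same T cell contrast was called in one arm and not in the other, the difference between the arms was tested as an interaction. All 10 interaction terms were above 0, with a median of 0.10 against -0.02 over all genes, and 0 of 10 were called by limma, as were 0 of all 22180 genes, of which 1482 had an unadjusted p under 0.05. The largest were Cnn1 at 0.33 ± 0.17 (SE, limma adjusted p = 0.763), Lmod1 at 0.27 ± 0.14 (SE, limma adjusted p = 0.764) and Synpo2 at 0.22 ± 0.15 (SE, limma adjusted p = 0.817), and 0 of 10 had an unadjusted p under 0.05. Over the 18 omissions of 1 mouse the median lay between 0.06 (without T cell ICA mouse 2) and 0.18 (without T cell vehicle mouse 2), and the terms of Actg2, Smtn and Mylk turned below 0 in some, to as low as -0.01, -0.02 and -0.04. The T cell effect was therefore not shown to differ between mice on ICA and mice on vehicle. These comparisons share groups with each other, so the positive signs in ICA against vehicle and in the interaction are not separate observations. The 10 genes were read from the same mice and correlated within groups, so their common sign is not 10 separate observations either. The mean ICA effect over both arms called 0 of 10 by limma, where 0.0135% of all genes were called. At an unadjusted p under 0.05 it had 0 of 10, and 1715 of all 22180 genes.

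Other genes of the smooth muscle machinery were read from 6 lists by role, in T cell against marrow-only mice on ICA. Of the thin filament list, 1 of 9 measured genes rose and 0 fell, with a median log2 difference of 0.18. The riser was Tpm2, a tropomyosin that winds along the actin filament, at 0.54 ± 0.11 (SE, limma adjusted p = 0.00776). The cytoplasmic actins Actb and Actg1, which all cells use, differed by -0.02 and -0.04. Cald1, caldesmon, differed by 0.39 under ICA (limma adjusted p = 0.0656) and rose in the effect averaged over treatments, by 0.36 ± 0.09 (SE, limma adjusted p = 0.0111).

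Of the myosin and light chain regulation list, 1 of 11 rose and 0 fell, with a median of 0.00. The gene was Ppp1r14a, CPI-17, a smooth muscle inhibitor of the phosphatase that reverses the action of Mylk. Ppp1r14a had 8.45, 8.52, 8.25, 8.47 and 8.74 in T cell mice on ICA, against 8.07, 8.04, 7.93, 7.75 and 7.73 in marrow-only mice on ICA, with no overlap, a difference of 0.58 ± 0.11 (SE, limma adjusted p = 0.00421). The nonmuscle heavy chain Myh9 differed by -0.01 and the phosphatase subunit Ppp1r12a by -0.03, and neither was called.

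The dense body and membrane anchor list, the structures to which the filaments attach, had 5 of 19 genes called higher and 0 lower, with 18 of 19 differences above 0 and a median of 0.22. They were Pdlim3 at 0.53 ± 0.12 (SE, limma adjusted p = 0.0175), an actinin-binding protein, Flna at 0.40 ± 0.09 (SE, limma adjusted p = 0.0146), the actin crosslinker filamin A, and Csrp1 at 0.36 ± 0.08 (SE, limma adjusted p = 0.0196), a LIM protein of the cytoskeleton. Vcl, vinculin, differed by 0.34 ± 0.09 (SE, limma adjusted p = 0.0335), and Fermt2, an integrin activator, by 0.25 ± 0.07 (SE, limma adjusted p = 0.0461). When the model held the ICA groups alone, 0 of these 19 were called. Synm, synemin, rose in the effect averaged over treatments, by 0.32 ± 0.09 (SE, limma adjusted p = 0.0433).

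The regulators above these genes were not called under ICA. Of 11 transcription regulators 0 rose and 0 fell by limma, with a median of 0.00 and 2 at an unadjusted p under 0.05. Of all 22180 genes, 3685 had such a p. Srf, serum response factor, had 9.79 ± 0.09 in T cell mice on ICA (SD, n = 5), against 9.80 ± 0.10 in marrow-only mice on ICA (SD, n = 5), a difference of -0.01 (limma adjusted p = 0.959). Its coactivator Mrtfa differed by 0.00 (limma adjusted p = 0.992), and Myocd, myocardin, by 0.21 ± 0.09 (SE, limma adjusted p = 0.25). Foxf1, a factor of gut mesenchyme, was the 1 regulator that rose in the effect averaged over treatments, by 0.24 ± 0.07 (SE, limma adjusted p = 0.0348).

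Of the calcium and ion channel list 1 of 14 rose and 0 fell under ICA, with a median of 0.14. Cacna1c, the pore of the L-type calcium channel through which calcium enters smooth muscle, had 8.47 ± 0.11 in T cell mice on ICA (SD, n = 5), against 8.10 ± 0.13 in marrow-only mice on ICA (SD, n = 5), a difference of 0.37 ± 0.07 (SE, limma adjusted p = 0.00685). Of the receptors of contraction and relaxation 1 of 12 rose and 0 fell, with a median of 0.15. That gene was Gucy1a1, a subunit of the nitric oxide receptor that relaxes muscle, at 0.35 ± 0.09 (SE, limma adjusted p = 0.025). In the effect averaged over treatments Chrm2, a muscarinic receptor for acetylcholine, rose by 0.24 ± 0.07 (SE, limma adjusted p = 0.0496) and P2ry1, a purine receptor of inhibitory transmission, by 0.28 ± 0.07 (SE, limma adjusted p = 0.016).

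In T cell against marrow-only mice on vehicle, 0 of the 76 genes of these 6 lists were called by limma. Of all genes there, 0.794% were called higher and 0.681% lower. At an unadjusted p under 0.05 there were 10 of the 76, and 2885 of all 22180 genes. The list medians were 0.20 for the thin filament, 0.09 for myosin regulation, 0.11 for dense bodies, 0.04 for transcription regulators, 0.08 for channels and 0.07 for receptors, against 0.25 for the 10 contractile genes and 0.01 for all genes. By limma 0 of the 76 were called in ICA against vehicle in T cell mice, in ICA against vehicle in marrow-only mice or in the interaction, where 10, 4 and 3 had an unadjusted p under 0.05. Of all 22180 genes, 1529, 1669 and 1482 had such a p, and 0.0135%, 0.00451% and 0% were called.

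**Figure D3:**
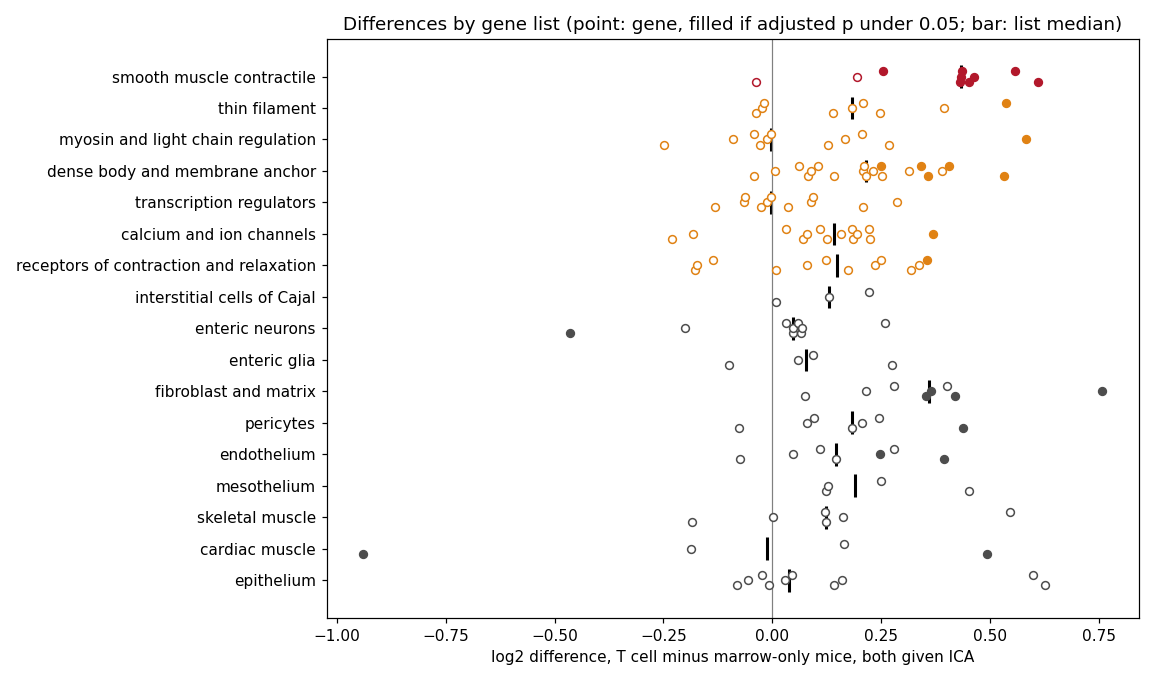
Log2 differences (x axis) of single genes by list (y axis) in T cell minus marrow-only mice, both on ICA; filled points have an adjusted p under 0.05 over all genes and black bars are list medians. The contractile genes have 8 filled points and a median of 0.43, the 6 related lists (orange) have medians between 0.00 and 0.22, and the matrix list has the highest median, 0.36, among the other cell types drawn. The T cell and macrophage lists are not drawn, and their medians there were 0.69 and 0.40.

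Genes of other cells of the gut wall moved in part with the contractile genes, and their part in the result was not tested. Of the fibroblast and matrix list 4 of 8 rose and 0 fell under ICA, namely Fn1 (0.76), Col1a2 (0.42), Col1a1 (0.36) and Col3a1 (0.35) in log2 difference. The list mean ran between 9.88 and 10.14 in T cell mice on ICA, against 9.49 to 9.70 in marrow-only mice on ICA. With vehicle Fn1, fibronectin, was the 1 called gene of the list, at 0.60. The list mean there was 9.72 to 9.86 in T cell mice, against 9.48 to 9.77 in marrow-only mice. The fibroblast marker Dcn was not called, at 0.07 under ICA.

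Of the pericyte list 1 of 7 rose (Mcam, 0.44), with list means of 8.56 to 8.86 in T cell mice on ICA against 8.37 to 8.69 in marrow-only mice on ICA, and its marker Rgs5 was not called at 0.18. Of the endothelium list 2 of 7 rose (Vwf, 0.39, and Cdh5, 0.25), with list means of 7.86 to 8.11 against 7.66 to 7.99 in the same groups. Both lists therefore overlapped between the groups. Of the cardiac muscle list, Tnnt2 rose by 0.49 and Myl7 fell by 0.94, while its marker Myh6 was not called at -0.19. Of the enteric neuron list 1 of 9 fell, Ret, the receptor tyrosine kinase of enteric neurons, at -0.46 ± 0.10 (SE, limma adjusted p = 0.00964). Of the 9 differences in that list 7 were above 0, with a median of 0.05.

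No gene was called in 5 further lists in that comparison: 0 of 3 for interstitial cells of Cajal, the pacemaker cells of the muscle, 0 of 4 for enteric glia, 0 of 4 for mesothelium, 0 of 6 for skeletal muscle and 0 of 10 for epithelium by limma. At an unadjusted p under 0.05 there were 0, 1, 1, 1 and 2 genes of these lists, and 3685 of all 22180 genes. The epithelium list mean was 11.62 to 11.78 in T cell mice on ICA, against 11.43 to 11.82 in marrow-only mice on ICA. Of the immune lists, 2 of 7 T cell genes and 2 of 8 macrophage genes rose on ICA (list medians 0.69 and 0.40), among them Cd8a, a T cell coreceptor, by 1.98 and the macrophage gene Mrc1 by 0.87. The T cell list mean was 7.74 to 8.54 in T cell mice on ICA, against 6.81 to 7.78 in marrow-only mice on ICA, and the macrophage list mean was 8.38 to 8.94 against 7.98 to 8.63 in the same groups. With vehicle the T cell list mean was 7.75 to 8.75 in T cell mice, against 6.63 to 7.22 in marrow-only mice, and the macrophage list mean 8.61 to 8.95 against 7.95 to 8.22. There 4 of 7 T cell genes and 4 of 8 macrophage genes rose (list medians 1.32 and 0.69), and in the effect averaged over treatments 6 of 7 and 7 of 8 did (list medians 1.01 and 0.51). Log2 signals have no true 0, so absence of a marker cannot be read from them.

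Within groups the contractile genes moved together from mouse to mouse. The measure was the Pearson correlation, over the 18 arrays, of each gene's deviations from its group means, which is given as a description because the arrays share their tissue sampling and scaling. Cnn1 was closest to the rest, with a median r of 0.80 to the other 9 genes, and its highest was 0.91 with Actg2. Tagln correlated with Cnn1 at 0.90 and Des with Cnn1 at 0.88. Smtn and Synpo2 were closest to each other, at 0.86. Mylk had the lowest median, 0.46, and Lmod1 was next at 0.52.

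**Figure D4:**
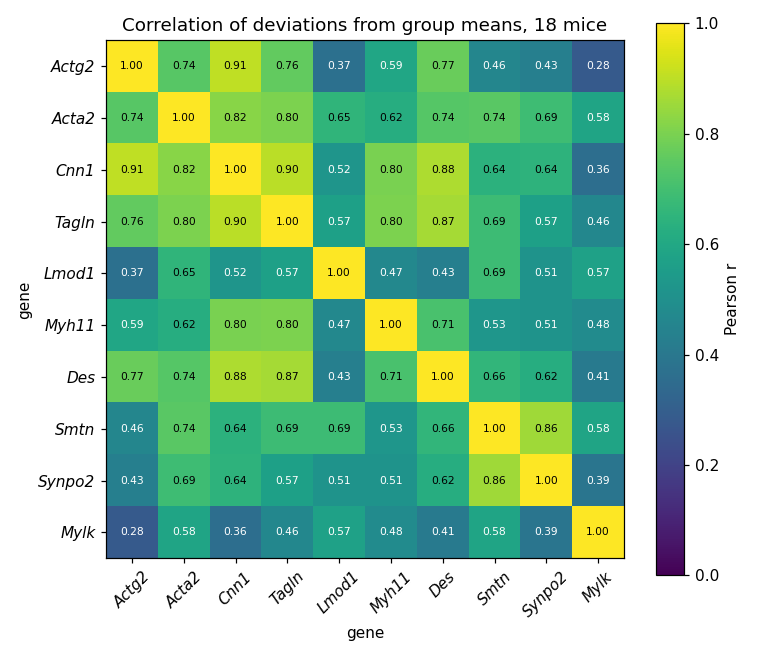
Pearson correlation (colour scale 0 to 1, value in each cell) between the 10 contractile genes on both axes, computed from deviations from group means over 18 mice. The highest value off the diagonal is 0.91 between Actg2 and Cnn1, the lowest is 0.28 between Actg2 and Mylk, and all are above 0.

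The mouse that deviated most from its group was T cell ICA mouse 3, with a deviation of -0.23 log2 units in its mean over the 10 genes, followed by T cell ICA mouse 1 with -0.17. By the same measure the genes outside the 10 that ran most like their mean were the actin crosslinkers Flna (r = 0.90, Spearman rho = 0.89) and Flnc (r = 0.88, rho = 0.86), Pdlim3 (r = 0.89, rho = 0.85) and Bves (r = 0.90, rho = 0.89), a membrane protein of muscle. Next came Pcdhb2 and Mageh1 (both r = 0.87), then Pcp4l1 and Pgm5 (both r = 0.84) and Mical3 and Hspb7 (both r = 0.83). Without the 2 mice farthest from their group means, Flna had r = 0.91, Bves 0.85, Pdlim3 0.86 and Flnc 0.84. The rest of the 10 then had 0.78 (Pgm5 and Hspb7) to 0.82 (Pcp4l1 and Mical3). Genes at the other end were Erich6b and Psmg1 (both r = -0.82) and Ifnab (r = -0.79), and the median over all 22170 other genes was 0.03. Without the same 2 mice, Erich6b had -0.82, Psmg1 -0.77 and Ifnab -0.65. Erich6b and Ifnab also had low mean signals, 5.55 and 5.05. Of the 22170 genes 73 had r of 0.70 or more.

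Of these 10 nearest genes, Flna, Pdlim3, Flnc and Pgm5 rose with T cells under ICA, where 1.05% of all genes were called higher and 2.07% lower. Under vehicle only Pgm5 of the 10 was called, where 0.794% of all genes were called higher and 0.681% lower. Pgm5, aciculin, a relative of phosphoglucomutase located at muscle adhesion sites, rose in both arms, by 0.43 ± 0.08 under ICA (SE, limma adjusted p = 0.0059) and by 0.44 ± 0.09 under vehicle (SE, limma adjusted p = 0.0208). Flnc, filamin C, rose by 0.51 ± 0.11 under ICA (SE, limma adjusted p = 0.0101), and under vehicle the difference was 0.26 ± 0.12 (SE, limma adjusted p = 0.352). Mageh1 ran with the contractile genes within groups but differed by -0.18 ± 0.10 under ICA (SE, limma adjusted p = 0.405).

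Among the lists, the mean of the dense body and membrane anchor genes followed the mean of the 10 contractile genes most closely within groups, at r = 0.93, and the channel list followed at 0.78. The matrix list had 0.62, the pericyte list 0.60 and the epithelium list 0.29. The T cell list had -0.11 and the macrophage list -0.03. All of these are descriptions over 18 arrays.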

How the data were processed

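The deposited table held log2 values for 41345 probe sets on 18 arrays. Per the submitters' processing notes Partek, GenomeStudio and RMA were used, and their versions and the log base were not stated in any source used here. The log2 scale was read from the range of the values. RMA estimates 1 level per probe set from several probes after background correction and quantile normalization, so low signals and folds are compressed.

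The platform annotation gave 1 symbol for 23521 probe sets, several for 1814 and none for 16010, and 23328 of those with 1 symbol had an Entrez ID in RefSeq. For each gene the probe set with the highest mean was kept, giving 22180 genes, with no filter on low values. Groups came from the sample titles. In R 4.3.3, limma 3.58.1 was fitted with 1 mean per group to all arrays, with a trended prior (14 residual degrees of freedom, 6.1 from the prior), and gave 7 comparisons; adjusted p under 0.05 was the threshold, and all tests were two-sided. The script was tested on simulated data. Figures used matplotlib 3.10.9.

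The 10 genes and the 19 lists (163 of 172 entries measured) were chosen with earlier results of these data known. Named were the 10 genes, called genes of the related lists (at most 6 a list) or those with the smallest p, the 10 genes most like and the 3 least like the mean of the members, and the cell type markers. Other named genes of the lists were chosen after their values were seen. Alternatives were mouse number as a block, a model of the compared groups alone, each mouse left out, 3 arrays left out, 2 further scalings, a low-value filter, mean of probe sets, other priors and array weights.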

Additional observations from a re-analysis of the deposited data

Results flagged for a closer look

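Of 40 gene and group pairs with 4 or 5 mice, 3 held a mouse far from the others by Dixon's test at 95%, and chance gives such a mouse in about 1 in 20 groups. Lmod1 was low in T cell ICA mouse 3, at 7.87, where the other 4 mice had 8.21 to 8.34. Lmod1 was high in marrow-only vehicle mouse 3, at 8.12, where the other 3 mice had 7.68 to 7.75, and this was 1 of the 3 arrays left out together in an alternative fit. Myh11 was low in marrow-only vehicle mouse 1, at 10.7, where the other 3 mice had 10.94 to 10.97.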

How the results depend on the processing

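No difference of the 10 genes reversed as a call: of 1930 values under alternative settings, 1902 kept their call, 27 lost it, 1 gained it, and 46 changed sign without a call in either setting. Under vehicle 0 of the 10 genes were called in T cell against marrow-only mice in 9 alternatives and all 18 omissions of a mouse, and with mouse number as a replicate block 1 was (Actg2, limma adjusted p = 0.0301). The labels do not say whether mice of the same number belong together, and a shared batch was not tested. Deviations of same-numbered mice of different groups correlated at -0.14 to 0.20, with 3 of 25 pairs over 0.1. For mice of different numbers and groups this was -0.28 to 0.36, with 15 of 96 pairs over 0.1. Under ICA 8 were called, 4 with only the groups compared, and 4 to 8 over the omissions. Without the trended prior Acta2 and Des lost their calls there (limma adjusted p = 0.0693 and 0.0577). Median differences lay between 0.39 and 0.49 over the omissions under ICA and between 0.20 and 0.30 under vehicle. Counts over all genes moved more. In T cell against marrow-only mice they were 378 to 1373 over the omissions under ICA and 321 (only the groups compared) to 1515 (without the 3 arrays) over the other settings, against 693. Under vehicle they were 94 to 515 over the omissions and 250 (without the trended prior) to 1074 (array weights) over the other settings, against 327. The averaged T cell effect called 1599 genes (1156 to 2001 over the omissions, 1388 to 2543 over the other settings). The ICA effect in T cell mice called 3 (1 to 9 over the omissions, 3 to 49 over the other settings), in marrow-only mice 1 (0 to 119, 0 to 9) and averaged 3 (1 to 97, 1 to 106). Scalings moved array medians by at most 0.023.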
